A study of Homo sapiens with 5 samples.

Results

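The 9 globin genes HBA1, HBA2, HBB, HBD, HBE1, HBG1, HBG2, HBZ and HBQ1 were followed across 5 arrays of TF-1 cells, a human erythroleukaemia line used as a model of erythroid progenitors. They are 9 of the 13119 genes named by the platform's annotation and were taken by symbol, which gave 17 probe sets (groups of oligonucleotides that report 1 transcript) of 22283. Of these, 8 were assigned to a single globin and 9 to a pair of genes, 6 to HBA1 and HBA2 together and 3 to HBG1 and HBG2 together. The members of a pair cannot be told apart. Probe sets whose names end in _x_at hold probes that the array's maker marked as able to bind other transcripts. This applies to all 9 shared probe sets and to the 3 of HBB, so signal from near-identical relatives may be included there.

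Cells carried the retroviral vector MSCV-GFP with DbSCL, a form of SCL (the transcription factor encoded by TAL1) that is defective in binding DNA and is called mutant SCL here, or MSCV-GFP alone. Per the labels, mutant SCL cells received either Steel factor (SF), which activates the receptor c-Kit, at a dose of 20 ng/mL, or erythropoietin (Epo). Vector cells received SF at 20 ng/mL, Epo, or GM-CSF at 5 ng/mL. Stimulation lasted 6 h and followed a night without growth factors. The labels give no dose of Epo and do not say whether the transduced cells were clones or mixed populations, and there was no unstimulated array. The brightest TAL1 probe set had a log2 signal of 8.29 with mutant SCL against 8.31 with vector under SF, 8.31 against 8.59 under Epo, and 7.57 with vector under GM-CSF. Another TAL1 probe set went the other way with mutant SCL, at 7.55 against 7.49 under SF and 7.75 against 7.56 under Epo. With vector under GM-CSF it read 7.55. Whether the TAL1 probes lie in the transgene is not given in the sources used here, so these values do not check the labels. Each group had 1 array, so no difference between a pair of groups has a p-value or a replicate check. In its place, a spread was estimated from how far the mutant SCL difference under SF departed from that under Epo over all probe sets of like signal. For the compared globins this spread of a log2 difference between a pair of arrays was 0.18 to 0.24. A true difference between cytokines in the response to mutant SCL would be counted in it.

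Haemoglobin is a tetramer of a pair of alpha-like and a pair of beta-like chains, each holding haem. The beta-like genes lie in a row on chromosome 11 in the order HBB, HBD, the pseudogene HBBP1, HBG1, HBG2 and HBE1, and the alpha-like genes on chromosome 16 in the order HBZ, HBA2, HBA1 and HBQ1. In development the embryonic epsilon chain of HBE1 gives way to the fetal gamma chains of HBG1 and HBG2. These give way to the adult beta chain of HBB and the minor adult delta chain of HBD. The zeta chain of HBZ is embryonic, and alpha chains are made in fetal and adult life. SCL acts in erythroid cells in a complex with E proteins, LMO2, LDB1 and GATA1, which binds regulatory regions of both globin clusters.

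Delta globin (HBD) was the globin that differed most with mutant SCL. Its log2 signal was 8.97 in mutant SCL cells under SF, against 10.01 in vector cells under SF, and 9.17 in mutant SCL cells under Epo, against 9.89 in vector cells under Epo. In vector cells under GM-CSF it was 9.51. Both mutant SCL arrays thus read lower than all 3 vector arrays. In the order mutant SCL SF, mutant SCL Epo, vector GM-CSF, vector Epo and vector SF, the first pair (a gap of 0.19) and the last pair (0.13) did not differ beyond the spread of 0.24, and the gaps of 0.34 and 0.38 around the GM-CSF array did. Mutant SCL minus vector was −1.04 under SF (2.06-fold lower, 4.25 times the spread) and −0.72 under Epo (1.65-fold lower, 2.95 times the spread). The SF and Epo differences rest on separate arrays. In bulk RNA, fewer cells with a transcript and less of it per cell cannot be told apart.

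The sequence of the HBD promoter is shown because HBD carries the largest difference among the globins with a form of SCL defective in binding DNA. The 250 bases upstream of the RefSeq gene start are given (GRCh38.p14, chr11:5234484-5234733, minus strand, written 5′ to 3′ in the direction of the gene). Capitals mark GATA on either strand (the core of the GATA factors' motif, TATC on the opposite strand), CANNTG (the E-box, the general motif of basic helix-loop-helix factors such as SCL) and CCAAT, none of which overlap here.
HBD promoter: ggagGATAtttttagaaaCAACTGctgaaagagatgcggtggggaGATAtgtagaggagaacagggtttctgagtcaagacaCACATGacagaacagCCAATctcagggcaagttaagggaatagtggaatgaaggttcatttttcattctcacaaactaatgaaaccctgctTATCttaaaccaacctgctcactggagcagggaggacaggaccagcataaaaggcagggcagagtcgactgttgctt

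This window held 3 GATA cores, which began 246, 205 and 77 bases before the start. It held 2 E-boxes, CAACTG beginning 232 bases and CACATG beginning 168 bases before the start. CCAAT occurred once, beginning 153 bases before the start, and a TATA-like ATAAA began 31 bases before it. Motifs were searched on both strands. Of 35116 promoter windows of this length, 45.6% held GATA, 61.8% CANNTG, 32.0% CCAAT and 32.7% ATAAA, so each is common. CACCC, a motif bound by KLF factors and held by 54.7% of windows, was not found. Nor was CTG followed by GATA at the spacing known for SCL and GATA1 complexes, searched as CTGNNNNNNNGATA (1.60% of windows), CTGNNNNNNNNGATA (1.63%) and CTGNNNNNNNNNGATA (1.63%). A match is a description of the letters, and no match says only that they are not in this window.

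HBD was the 1 globin probe set of 16 compared that differed 2-fold or more between mutant SCL and vector cells under SF, where 0.461% of all 13661 probe sets compared did so in either direction. Under Epo 0 of 16 globin probe sets did, against 0.387% of 13448. A probe set entered a comparison when at least 1 of its arrays was above a floor of 4.45, the 40th percentile of all signals. For 2-fold lower signal under both cytokines the count was 0 of 16, against 0.0151% of 13286 probe sets (2 in all). At 1.5-fold it was 1 of 16, again HBD, against 0.565% (75 in all). Over both cytokines, limma on the 4 SF and Epo arrays with cytokine as a block gave HBD a mean log2 signal of 9.07 with mutant SCL against 9.95 with vector, a difference of −0.88 ± 0.13 (SE), with an adjusted p of 0.625 and an unadjusted p of 0.0119. In this fit, chosen after the data were seen and with 1 residual degree of freedom, 0 of 16 globin probe sets and 0 (0%) of 13823 in all had an adjusted p under 0.05. At an unadjusted p under 0.05 there were 1 of 16 and 7.53% of 13823. On the SF arrays 48 probe sets were at least as far below vector as HBD, and on the Epo arrays 154 were.

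Array controls moved beside this result. The mutant SCL SF array read higher than the vector SF array by 0.55 in the hybridization controls, by 0.53 in 28S ribosomal RNA and by 1.44 in the gap between the beta-actin probe sets at the 3′ and 5′ ends, a measure of RNA or labelling length. Under Epo the same 3 values were 0.19, 0.89 and 0.27. Their part in the HBD difference was not tested. On the same arrays the median difference was 0.03 under SF and 0.09 under Epo for the 3 HBG1/HBG2 probe sets, and −0.04 and −0.24 for the 6 HBA1/HBA2 probe sets. The HBD difference minus the HBG1/HBG2 median was −1.07 under SF and −0.81 under Epo. With quantile normalization the HBD difference under SF was −0.94, short of 2-fold.

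**Figure D1:**
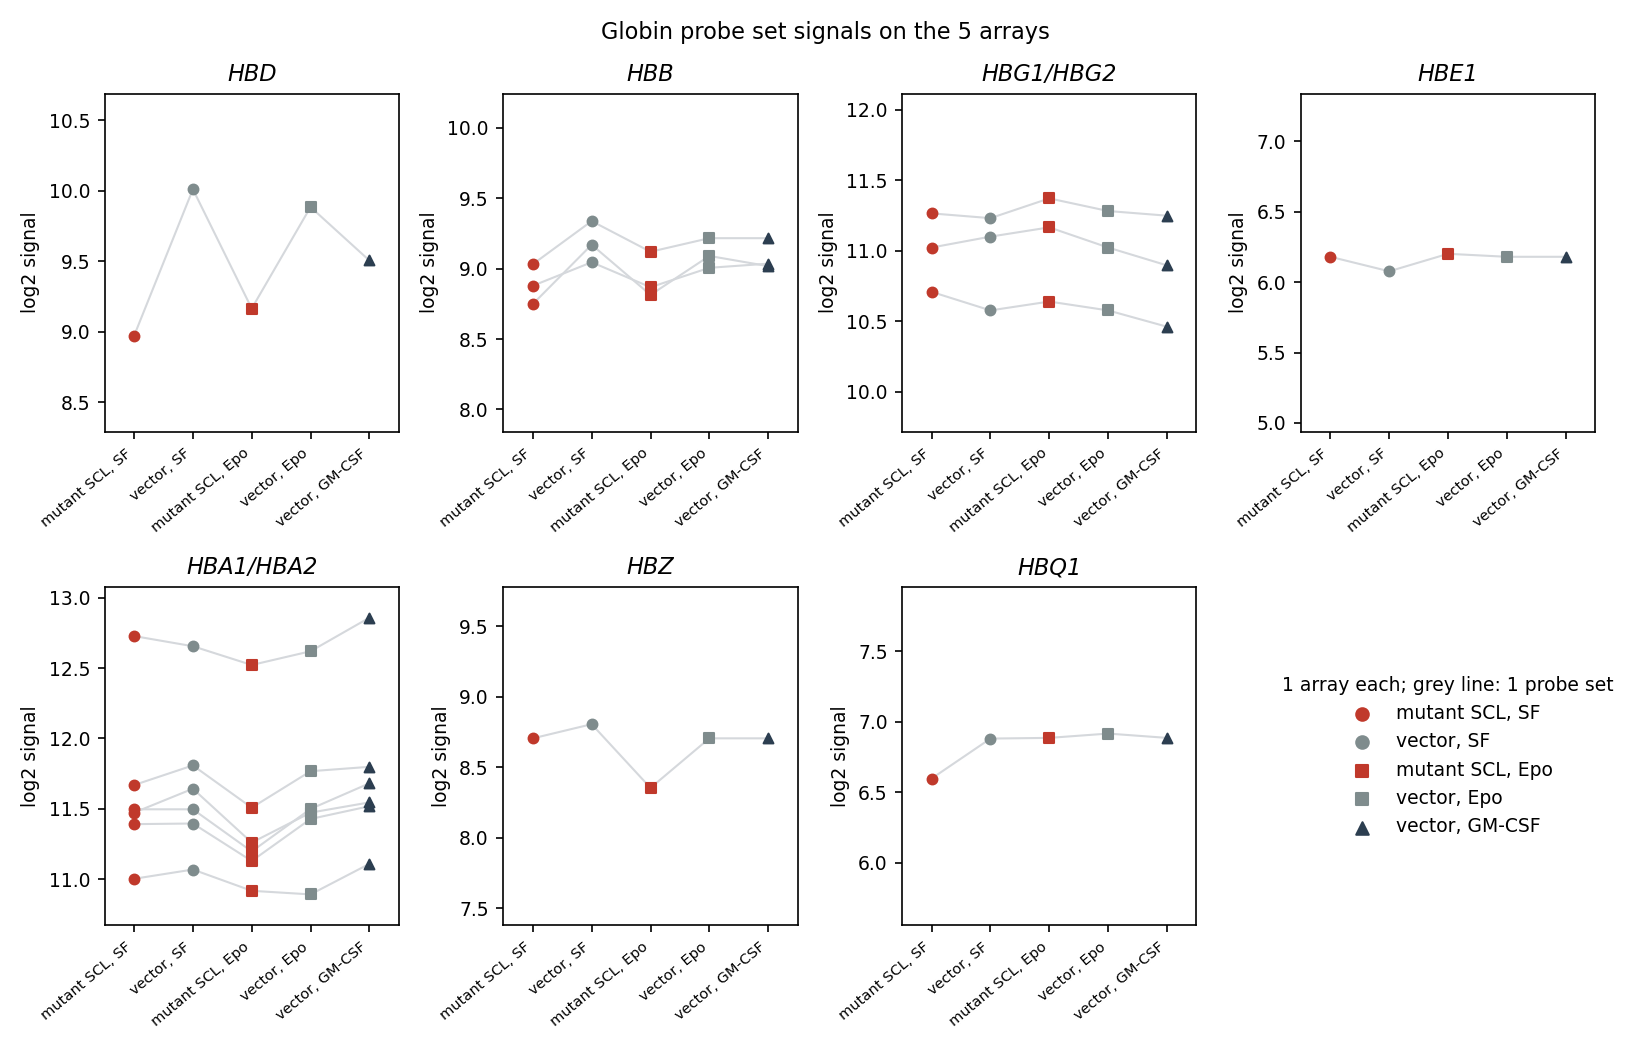
Log2 signal (vertical axes, each panel spanning the same height) of the 16 globin probe sets above the floor, on the 5 arrays (horizontal axes), with 1 panel per gene or gene pair, 1 point per array and a grey line joining the points of 1 probe set. HBD reads 8.97 and 9.17 on the mutant SCL arrays against 10.01, 9.89 and 9.51 on the vector arrays, while the other globins stay within 0.48 over the 5 arrays.

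Beta globin (HBB), the major adult beta-like gene, had 3 probe sets, and both mutant SCL arrays read lower than all 3 vector arrays in each of them. The first (209116_x_at) was 8.75 in mutant SCL cells, against 9.17 in vector cells, under SF, 8.81 against 9.09 under Epo, and 9.02 in vector cells under GM-CSF. The second (211696_x_at) was 9.03 against 9.34 under SF, 9.12 against 9.22 under Epo, and 9.22 under GM-CSF. The third (217232_x_at) was 8.88 against 9.04 under SF, 8.87 against 9.01 under Epo, and 9.03 under GM-CSF. The sizes were small. The mutant SCL differences were −0.42, −0.31 and −0.17 under SF, of which 2 exceeded the spread of 0.24, and −0.28, −0.10 and −0.14 under Epo, of which 1 did. Over the 3 probe sets, 0 of 12 gaps between neighbouring arrays exceeded the spread. The direction under SF held in all 3 probe sets under every normalization tried, and under Epo it turned to 0.05 for 1 of the 3 with quantile normalization. With that normalization 1 of 3 exceeded the spread under SF and 0 of 3 under Epo. Because HBB probe sets may also bind HBD transcripts, the signals of both genes may not be independent.

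The median HBB difference was −0.31 under SF and −0.14 under Epo, and the HBD difference minus this median was −0.73 and −0.58. HBBP1, the pseudogene that lies between HBD and HBG1, is not among the 9 genes and was chosen after its values were seen. Its log2 signal was 7.47 in mutant SCL cells, against 7.87 in vector cells, under SF, 7.67 against 8.01 under Epo, and 7.58 in vector cells under GM-CSF. Its differences of −0.40 and −0.34 exceeded its spread of 0.22 and were short of 1.5-fold.

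The fetal gamma globins HBG1 and HBG2 did not differ beyond the spread with mutant SCL in the deposited values. The first shared probe set (204419_x_at) read 11.02 in mutant SCL cells against 11.10 in vector cells under SF, 11.17 against 11.02 under Epo, and 10.90 in vector cells under GM-CSF. The second (204848_x_at) read 10.71 against 10.58 under SF, 10.64 against 10.58 under Epo, and 10.46 under GM-CSF. The third (213515_x_at) read 11.26 against 11.23 under SF, 11.37 against 11.28 under Epo, and 11.25 under GM-CSF. Mutant SCL and vector arrays overlapped in 204419_x_at and 213515_x_at. In 204848_x_at both mutant SCL arrays read higher than all 3 vector arrays, by a gap of 0.06 that lay within the spread. Over the 3 probe sets, 0 of 12 gaps between neighbouring arrays exceeded the spread. The mutant SCL differences were −0.08, 0.13 and 0.03 under SF and 0.14, 0.06 and 0.09 under Epo, all within the spread. All 3 were above 0 under Epo as deposited, but below 0 (−0.13 to −0.05) when arrays were centred on their hybridization controls. So were all 3 under SF (−0.62 to −0.41). With quantile normalization all 3 were above 0 under Epo (0.17 to 0.25), 1 of them beyond the spread. Under SF that normalization gave 2 above 0 and 1 below (−0.02 to 0.23), 0 of them beyond the spread.

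**Figure D2:**
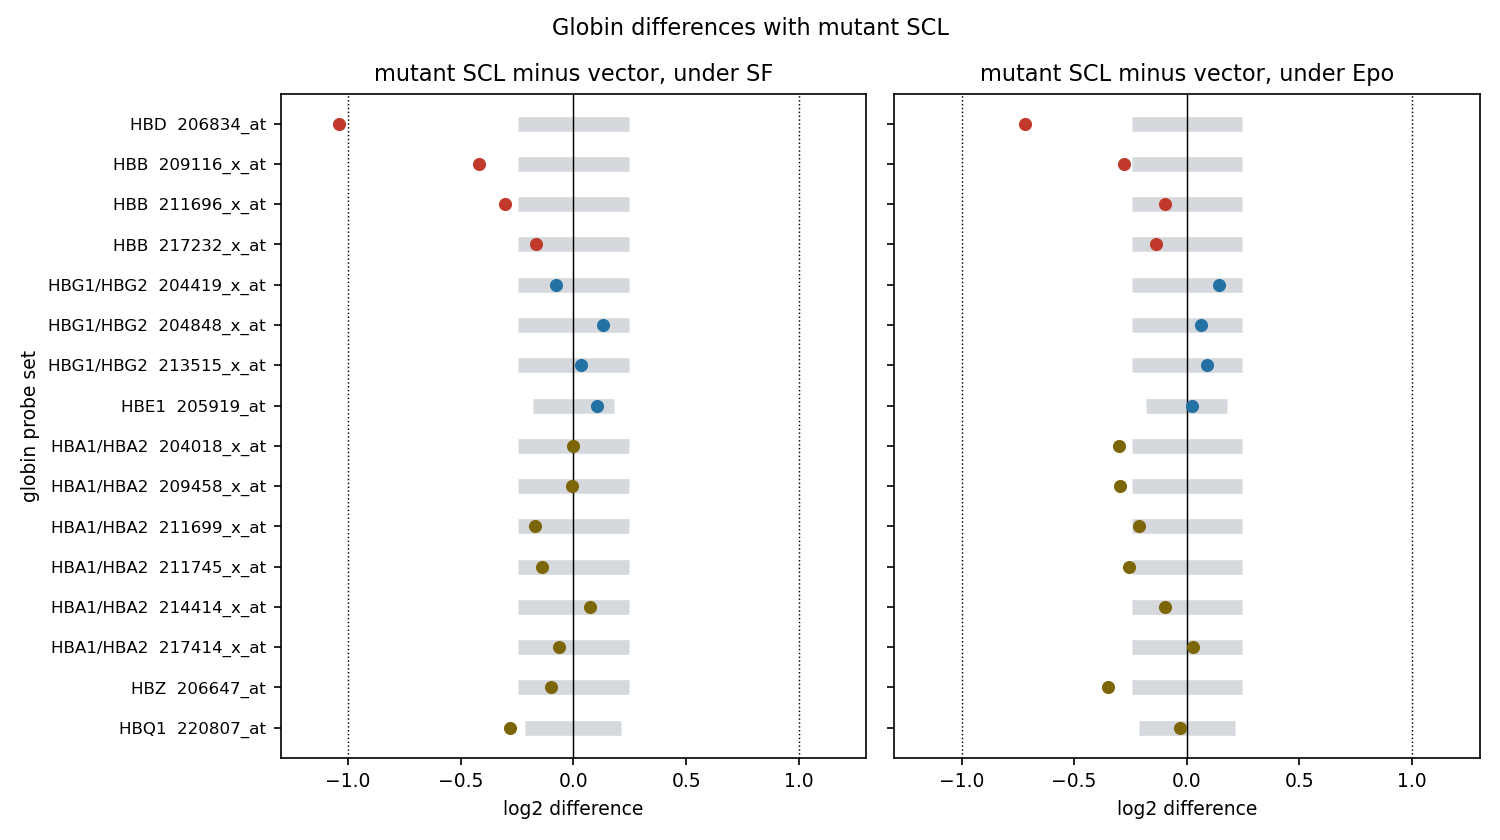
Log2 difference between mutant SCL and vector cells (horizontal axis) for each of the 16 compared globin probe sets (vertical axis), under SF (left) and under Epo (right), with 1 array per group. Points are red for HBD and HBB, blue for HBG1/HBG2 and HBE1, and brown for the alpha-like genes, grey bars show the estimated spread of a difference on either side of 0, and dotted lines mark 2-fold. HBD lies at −1.04 and −0.72, while the HBG1/HBG2 points lie inside the bars.

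HBE1, the embryonic epsilon gene, had 1 probe set above the floor (205919_at). It read 6.18 in mutant SCL cells against 6.08 in vector cells under SF, 6.20 against 6.18 under Epo, and 6.18 in vector cells under GM-CSF, a range of 0.12 that lay within its spread of 0.18. The other HBE1 probe set (217683_at) was below the floor on all 5 arrays, between 3.81 and 4.37, and gave no difference. It was the 1 of 17 globin probe sets that was not compared.

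The 6 probe sets shared by the alpha genes HBA1 and HBA2 ran from 10.89 to 12.86. Probe set signals depend on the probes as well as on the RNA and were not compared between genes. Here the mutant SCL Epo array was the lowest in 5 of the 6 probe sets. The probe set with the largest range (204018_x_at) read 11.50 in mutant SCL cells and the same value, to every deposited digit, in vector cells under SF, 11.20 against 11.50 under Epo, and 11.68 in vector cells under GM-CSF. The probe set with the smallest range (217414_x_at) lay between 10.89 in vector cells under Epo and 11.11 in vector cells under GM-CSF. The brightest (214414_x_at) read 12.73 against 12.65 under SF, 12.52 against 12.62 under Epo, and 12.86 under GM-CSF.

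Under SF the alpha differences with mutant SCL lay between −0.17 and 0.07, with 4 below 0, 1 above 0 and 1 at 0, and none exceeded the spread. Under Epo they lay between −0.30 and 0.03, with 5 below 0, and 3 exceeded the spread of 0.24 (204018_x_at at −0.30, 209458_x_at at −0.30 and 211745_x_at at −0.26). With quantile normalization 0 of the 6 exceeded it, the lowest being −0.19. None reached 1.5-fold in the deposited values. Between SF and Epo in mutant SCL cells all 6 were above 0 (0.09 to 0.30), 2 of them beyond the spread, but these use the same mutant SCL Epo array and are not independent of it. With arrays centred on the hybridization controls, which read 0.79 higher on the mutant SCL SF array than on the mutant SCL Epo array, these SF minus Epo values turned below 0.

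HBZ, the embryonic zeta gene (206647_at), read 8.71 in mutant SCL cells against 8.81 in vector cells under SF, 8.35 against 8.71 under Epo, and 8.71 in vector cells under GM-CSF. The mutant SCL Epo array stood apart from the other 4 by a gap beyond the spread. Its difference was −0.35 (1.28-fold lower) under Epo and −0.10 under SF. With quantile normalization these became −0.21, within the spread of 0.24, and 0.02. HBQ1, the theta gene, whose protein has no settled role (220807_at), read 6.60 in mutant SCL cells against 6.88 in vector cells under SF, 6.89 against 6.92 under Epo, and 6.89 in vector cells under GM-CSF. Here the mutant SCL SF array stood apart from the others, with a difference of −0.28 against a spread of 0.21, and the difference under Epo was −0.03, which quantile normalization turned to 0.01.

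Over all 16 compared globin probe sets, 11 read lower, 4 higher and 1 equal with mutant SCL under SF, with a median of −0.09, beside a median of 0.00 and shares of 42.4% lower and 46.2% higher over all probe sets compared. Under Epo 11 read lower and 5 higher, with a median of −0.12, beside 0.00, 45.5% and 42.1%. These tallies depended on the scaling. With quantile normalization 9 read lower and 7 higher under SF, and 8 lower, 7 higher and 1 equal under Epo. With arrays centred on the hybridization controls all 16 read lower under SF and all 17 then above the floor under Epo, where the medians of all probe sets were −0.53 and −0.19. With arrays centred on their median 13 read lower and 3 higher under either cytokine. The probe sets share targets and are not independent counts, since 6 of them report the same pair of alpha genes. Apart from HBD, 0 of 15 probe sets reached 1.5-fold in either mutant SCL comparison, beside 5.39% of all probe sets under SF and 3.53% under Epo, shares at which few or none of 15 would be counted.

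**Figure D3:**
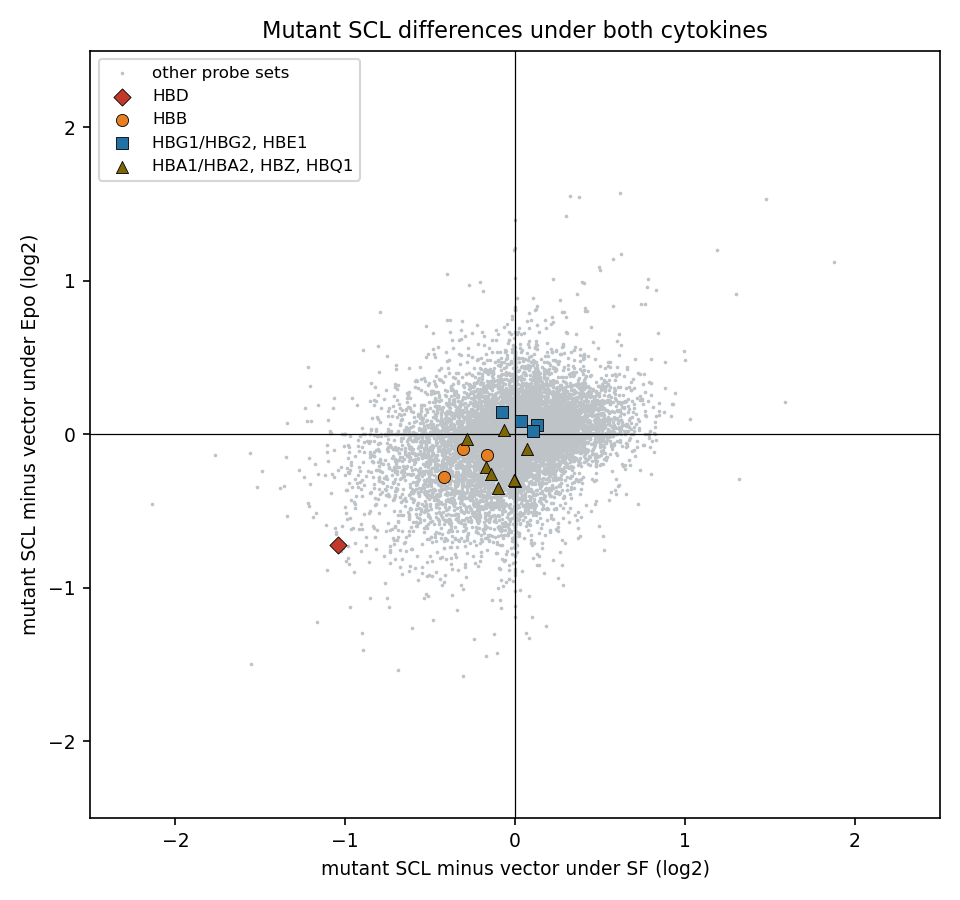
Log2 difference between mutant SCL and vector cells under SF (horizontal axis) and under Epo (vertical axis), 1 point per probe set compared under both, with globins in colour and all others in grey. HBD (diamond) lies at −1.04 and −0.72, among the 75 probe sets of 13286 that were 1.5-fold or more lower under both, and the other globins lie near the middle of the cloud.

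Cytokines were compared in vector cells to ask how globin signals under SF, the c-Kit ligand, and under Epo, the main erythroid hormone, stood against those under GM-CSF, in which the line is maintained. No globin probe set of 16 differed 2-fold between SF and GM-CSF, where 0.7% of all probe sets compared did, between Epo and GM-CSF (3.53%), or between SF and Epo (0.0448%). HBD was again the globin with the largest difference from GM-CSF, 0.51 under SF (2.07 times the spread) and 0.38 under Epo (1.55 times the spread). These comparisons share the GM-CSF array. They are not unusual among all probe sets, of which 12.4% differed by at least as much between SF and GM-CSF and 30.8% between Epo and GM-CSF. Over normalizations the HBD difference ran from 0.30 to 1.02 under SF and from 0.08 to 1.33 under Epo, the highest being with arrays centred on the hybridization controls, which read 0.51 and 0.95 lower on the SF and Epo arrays than on the GM-CSF array.

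For the other globins the differences from GM-CSF lay between −0.20 and 0.20 under SF and between −0.24 and 0.13 under Epo, all within the spread as deposited. The 6 alpha probe sets were all below 0 under Epo (−0.24 to −0.03), but 2 of them turned above 0 with arrays centred on their median and all 6 with arrays centred on the hybridization controls. The 3 gamma probe sets were all above 0 (0.03 to 0.13), but 2 of them turned below 0 with quantile normalization. HBB lay between 0.01 and 0.15 under SF, where quantile normalization turned all 3 probe sets below 0, and between −0.03 and 0.07 under Epo, where with quantile normalization all 3 lay below 0 and beyond the spread (−0.37 to −0.28). With that normalization 5 of 16 globin probe sets, HBD included, exceeded the spread between SF and GM-CSF and 8 of 16 between Epo and GM-CSF, where HBD did not. Between SF and Epo in vector cells the globins lay between −0.10 and 0.18, and HBD gave 0.13.

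In mutant SCL cells, HBD read 8.97 under SF against 9.17 under Epo, a difference of −0.19 that lay within the spread. Here 0 of 16 globin probe sets were 2-fold different, against 0.256% of all probe sets compared. Beyond the spread were HBZ (0.35), HBA1/HBA2 204018_x_at (0.30) and 209458_x_at (0.26), and HBQ1 (−0.29). Set against vector cells under GM-CSF, from which they differ in cytokine too, mutant SCL cells gave log2 differences in HBD of −0.53 under SF and −0.34 under Epo.

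The probe sets whose pattern over the 5 arrays was nearest to that of HBD belonged to FASN (fatty acid synthase), LEF1 (a transcription factor of the Wnt pathway) and ZBTB18 (a zinc finger repressor). HBD was the only globin probe set above the floor with a range of at least 1.5-fold, and it was set beside 11031 others. Likeness was the root mean square difference of signals centred on their own mean, 0.11 for FASN, 0.12 for LEF1 and 0.12 for ZBTB18, where the median probe set gave 0.42. FASN gave mutant SCL differences of −0.96 under SF and −0.43 under Epo, LEF1 −0.99 and −0.36, and ZBTB18 −0.99 and −0.55. The other FASN probe set gave 0.29 under SF, and the other LEF1 probe set above the floor gave 0.43 under SF and −0.05 under Epo, unlike those nearest to HBD. The other ZBTB18 probe set was below the floor.

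**Figure D4:**
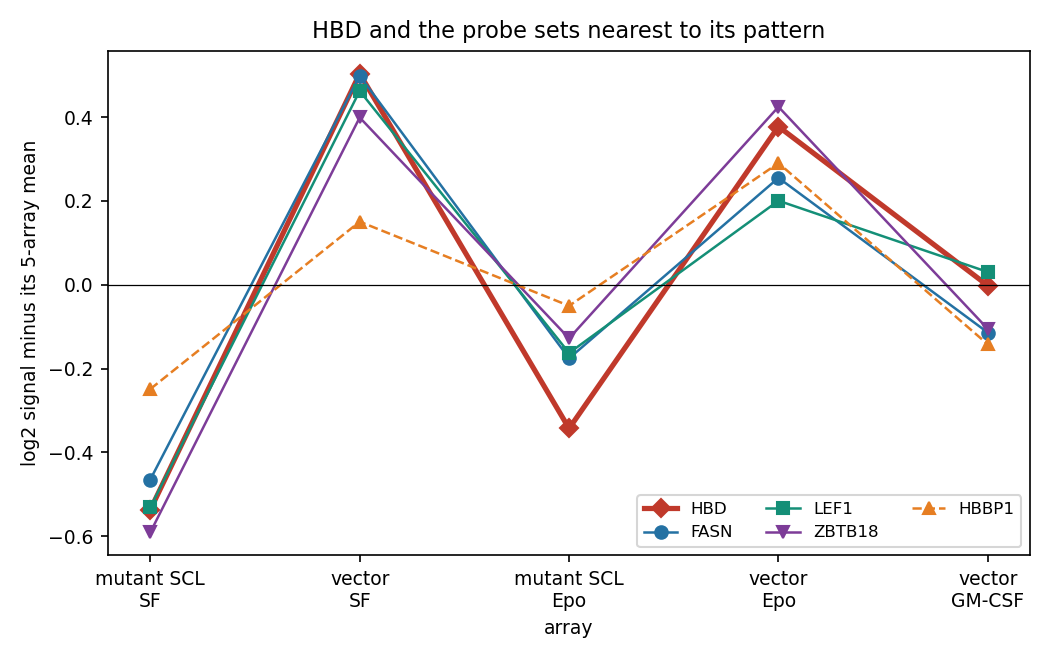
Log2 signal minus its mean over the 5 arrays (vertical axis) on each array (horizontal axis) for HBD (thick line), for the 3 probe sets nearest to it and for the pseudogene HBBP1 (dashed). All 5 lines are lower on each mutant SCL array than on the vector array of the same cytokine.

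Genes known to regulate the globins were followed as a list of 40, of which 34 had a probe set of their own and 30 were compared, with the brightest probe set standing for a gene. Under SF with mutant SCL 1 was 2-fold higher and 0 lower, beside 0.0118% and 0.343% of all genes. Of the 30, 22 lay below 0 and 4 above, with a list median of −0.08, where 42.4% of all probe sets compared lay below 0. That share counts every probe set, while the list holds 1 per gene. The median over all genes was 0.00 under SF and under Epo. Whether the tally of 22 depends on the scaling of the arrays was not tested. Under Epo the counts were again 1 and 0, beside 0.0957% and 0.275%, and the median was −0.08. Here 18 of the 30 lay below 0 and 7 above, where 45.5% of all probe sets compared lay below 0. Dependence of this tally on the scaling was not tested either. The 1 gene was TCF3, which encodes E proteins that pair with SCL (1.88 and 1.12), but its 10 other probe sets above the floor lay between −0.12 and 0.75 under SF and between −0.01 and 0.68 under Epo. NFYB, a subunit of the CCAAT-binding factor NF-Y, gave −0.74 under SF and −0.40 under Epo, and SSBP3, which binds LDB1, −0.70 and −0.08. RCOR1, the CoREST scaffold, gave −0.52 and −0.68, and the histone demethylase KDM1A 0.16 and −0.58. KLF1, an activator of adult beta globin, and BCL11A, a repressor of the gamma genes, are named for their role after their values were seen. KLF1 lay between 7.70 and 7.78 on all 5 arrays and BCL11A between 6.21 and 6.31.

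Under Epo against GM-CSF, 4 regulators of 30 were 2-fold higher, NFYB (1.15), RCOR1 (1.02), the insulator protein gene CTCF (1.02) and TAL1 (1.02, while another TAL1 probe set gave 0.02), beside 3.46% of all genes. TCF3 was lower (−3.39), beside 0.117%. Under SF against GM-CSF 0 were higher and TCF3 was lower (−2.25), beside 0.573% and 0.0234%. Between SF and Epo TCF3 was higher in vector cells (1.14), beside 0.012% of genes higher and 0.0241% lower, and in mutant SCL cells (1.89), beside 0.0236% and 0.201%. These TCF3 values are those of its brightest probe set alone. Against GM-CSF its other probe sets above the floor lay between −0.63 and 0.00 under Epo and between −0.80 and 0.03 under SF. Between SF and Epo they lay between −0.17 and 0.24 in vector cells and between −0.55 and 0.52 in mutant SCL cells.

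Haem must be supplied in step with globin, and 12 of 15 listed genes of haem synthesis and its mitochondrial transport were compared. With mutant SCL 0 differed 2-fold under SF, beside 0.0118% of all genes higher and 0.343% lower, with a median of 0.00. Under Epo 1 was lower, ALAS1 (−1.07), the housekeeping form of the first enzyme, beside 0.275% of all genes. Here 9 of 12 lay below 0, with a median of −0.18 beside 0.00 over all genes. Of all probe sets compared, not taken 1 per gene, 45.5% lay below 0. ALAS2, the erythroid form, gave 0.23 under SF and −0.38 under Epo, and CLPX, a protease that acts on ALAS in mitochondria, −0.82 and −0.46. Under Epo against GM-CSF UROS (1.21) and ALAS1 (1.12) of this pathway were higher, 2 of 12, beside 3.46% of all genes, and the median was 0.44 beside 0.00 over all genes.

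Of 15 genes that bind or break down haem or handle haemoglobin, 10 were compared. HEBP1, a haem-binding protein gene, had log2 signals of 6.00 in mutant SCL cells against 6.89 in vector cells under SF, 5.99 against 7.39 under Epo, and 6.33 in vector cells under GM-CSF. With mutant SCL it differed by −0.89 under SF and by −1.40 under Epo, and it was the 1 member past 2-fold of 10 in each of Epo against GM-CSF (1.06), beside 3.46% of all genes higher, and mutant SCL against vector under Epo, beside 0.275% lower. AHSP, the chaperone of free alpha chains, gave mutant SCL differences of 0.22 and 0.20, and was weak on all arrays, at 4.83 to 5.61. Of other members of the globin superfamily, myoglobin (MB) and neuroglobin (NGB) were compared and differed by no more than 0.11 with mutant SCL. A list of 12 genes from the chromosome regions of the clusters was followed without measuring their distances, so they are not shown to be neighbours of the globins. Of these 9 were compared and 0 differed 2-fold in any comparison. Among them RRM1 gave −0.52 and STIM1 −0.38 with mutant SCL under SF, and 0.14 and 0.25 under Epo. SNRNP25, near the alpha cluster, gave 0.00 and −0.43.

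Marker lists of several cell types were followed. Of 19 erythroid markers 14 had a probe set of their own and 13 were above the floor on every array, among them KLF1, GATA1, TFRC, RHAG, SLC4A1 and ANK1, and CA2 was below it on all 5. Markers of other lineages passed this floor on every array too, 5 of 8 megakaryocyte, 5 of 5 mast cell and basophil and 4 of 7 lymphoid. Passing it therefore does not set a lineage apart. The summed log2 signal of the 14 erythroid markers, taken without the floor, was 100.5 with mutant SCL against 99.6 with vector on the SF arrays, 98.8 against 100.2 on the Epo arrays, and 99.97 with vector on the GM-CSF array. The erythroid list shares KLF1, GATA1, ALAS2 and AHSP with the lists above. With mutant SCL 0 of 13 differed 2-fold, the median being 0.15 under SF and −0.07 under Epo. Under SF 9 of 13 lay above 0 and 3 below, and under Epo 2 lay above 0 and 9 below. Over all probe sets compared, not taken 1 per gene, 46.2% lay above 0 and 42.4% below under SF, and 42.1% and 45.5% under Epo. RHAG, an erythroid membrane channel gene, gave −0.63 under SF and −0.52 under Epo. Its other probe sets gave −0.04 and −0.12 under SF, and 0.00 and −0.07 under Epo. CA1, a carbonic anhydrase of red cells, gave 0.56 and −0.38, and EPOR, the Epo receptor, 0.39 and −0.12. Of 10 granulocyte and monocyte markers 9 had a probe set, of which 4 were above the floor on all arrays and 4 on none. The summed log2 signal of these 9, taken without the floor, was 40.69 with mutant SCL against 38.98 with vector on the SF arrays and 39.98 against 39.29 on the Epo arrays. This sum includes the 4 markers below the floor on all arrays, so part of its difference is signal below the floor. Of the markers above the floor, 0 differed 2-fold with mutant SCL under SF or Epo among 5 granulocyte and monocyte, 6 megakaryocyte, 5 mast cell and basophil and 4 lymphoid genes compared. These counts, and the erythroid 0 of 13, stand beside 0.0118% of all genes higher and 0.343% lower under SF. Under Epo the shares were 0.0957% and 0.275%, and at such shares few or none would be counted. Of the 5 mast cell and basophil genes, 3 lay above 0 under SF and 2 under Epo. FCER1A gave −0.82 under SF and −0.75 under Epo, KIT −0.70 and −0.40, and HDC 0.46 and 0.60.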

How the data were processed

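TF-1 cells in 5 groups of 1 array each were compared. The authors deposited 1 log2 signal per probe set and array. The values run from 2.08 to 13.77, from which the log2 unit was taken. The array reading software, the summary method and any normalization between arrays are not given in the sources used here. Column medians lay between 4.90 and 4.99, and values were used as deposited. The platform's annotation supplied the symbols, 1 each for 19065 non-control probe sets, several for 1043 and none for 2107, and 68 of the 22283 probe sets were controls. In differences and in the limma fit, values under the floor of 4.45 were set to it, while signals and their sums are as deposited. A difference is the first group's log2 signal minus the second's, counted at 2-fold. The spread was the scaled median absolute deviation, in 10 bins of signal, of the change in the mutant SCL difference between SF and Epo, divided by the square root of 2, and does not describe rare large deviations. The counting and the spread were tested on simulated data.

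For mutant SCL over both cytokines, limma 3.58.1 (moderated with a trend on signal, adjusted by Benjamini-Hochberg over all probe sets above the floor) was run with cytokine as a block and tested on simulated data. The simulated data had the same noise in every probe set, unlike these arrays, so that test does not show what the fit can call here. Every globin probe set is described. From the gene lists, members past 2-fold and up to 3 more with the largest differences were eligible to be named, and the 3 probe sets nearest to a globin with a range of at least 1.5-fold. Members and lists were chosen with earlier results of these data known. Exactly equal signals on both arrays occurred for 13.8% of probe sets between mutant SCL and vector under SF. The number of arrays, 1 per group, limits the precision. Python 3.11.15, numpy 2.4.6, pandas 2.3.3 and matplotlib 3.10.9 were used. Sequences are from RefSeq, GRCh38.p14.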

Additional observations from a re-analysis of the deposited data

How the results depend on the processing

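The alternatives were quantile normalization, centring arrays on their median or on the hybridization controls, no floor, a floor at the 50th percentile, a 1.5-fold rule and single-gene probe sets only. The count of globins past 2-fold with mutant SCL under SF was 1 (HBD) and became 0 with quantile normalization, which put HBD at −0.94. At 1.5-fold the counts under Epo and under both cytokines became 1 in place of 0, HBD each time, by construction of the lower limit. With arrays centred on the hybridization controls the count became 1 for SF against GM-CSF (HBD), 4 for Epo against GM-CSF, and 1 for SF against Epo in mutant SCL cells (HBQ1), in place of 0. This setting moved the median of all probe sets by 0.51, 0.85 and −0.74 in those comparisons, and by −0.53 and −0.19 for mutant SCL under SF and Epo. The other counts did not move by more than 1.5 times. Of 96 single differences, 81 moved by more than the spread under hybridization centring, 8 under quantile normalization and 0 under the other 3 settings, and 0 past 2-fold changed sign. The HBD difference with mutant SCL ran from −1.59 to −0.94 under SF and from −0.91 to −0.59 under Epo over these settings. Replicate numbers pair no samples here, since each group had 1 array, and no replicate could be left out. With cytokine as a block, chosen after seeing the data, limma called 0 of 16 globin probe sets. Signals near the floor, as for HBE1, limit what can be read.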
